A study of Mus musculus with 10 samples.

Results

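The interferon-induced transmembrane (IFITM) genes Ifitm1, Ifitm2, Ifitm3, Ifitm6 and Ifitm10 were described in mouse bone marrow B-cells sorted by the dilution of a GFP-tagged histone. Members were the rows of the count table whose Ensembl identifier maps, on GRCm38, to these 5 symbols, out of 55573 genes in the table. Ifitm1 was selected on its counts in these same libraries, where it was seen to differ between GFP high and GFP low, and was set against its neighbours. The levels and fold changes of the members are therefore a description with no test. Of the 5 members, 3 passed the filter on low counts and were among the 12772 genes tested.

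All 10 libraries carried the genotype PAX5-ELN H2B-GFP, the treatment doxycycline and the time 35 days. PAX5-ELN joins the gene of a B-lineage transcription factor to that of elastin and occurs in human B-cell acute lymphoblastic leukemia. H2B-GFP marks chromatin and is diluted at each division. The 5 GFP high libraries were labelled quiescent and the 5 GFP low libraries proliferating. The sources used here do not give what drives either transgene, or whether the 35 days count labelling or dilution. Libraries without the fusion were not analysed here. Whether libraries came from separate animals is not stated either, so p-values measure the spread between these samples, which may be technical.

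IFITM proteins are small membrane proteins, many of them induced by interferon, that hinder the fusion of viruses with cell membranes. IFITM1 sits mainly at the cell surface, while IFITM2 and IFITM3 cycle through endosomes. On B cells IFITM proteins are known to meet other membrane proteins, among them the tetraspanin CD81. In the mouse most of the genes lie close together on chromosome 7, and some are also active in germ cells and stem cells without interferon.

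The libraries held 10640894 to 14858520 counts each, so that a floor of 3 counts corresponded to 0.203 to 0.291 CPM (counts scaled by library size), which covers counting error only. Of the counts from 1 to 20, 67.2% to 69.8% per library were even numbers. The sources used here do not give how the ends of a read pair were counted, so low counts may stand for fewer independent fragments than their number. All 10 B-lineage markers were tested, and their summed level was 13057 to 14702 CPM for GFP high and 10671 to 11733 CPM for GFP low. Mki67, a gene of dividing cells, was at 178 ± 60.7 CPM among GFP high and 406 ± 136 CPM among GFP low libraries (SD, n = 5 each). In the deviations of libraries from their group means, the libraries numbered 4 and 5 stood apart from those numbered 1 to 3 in both groups. Values are therefore also given for these sets of libraries.

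The sequence upstream of the detected members is shown first, because the members share a locus and a family but not a pattern across libraries. Each stretch was read from the RefSeq promoter table of GRCm38.p6 and is printed 5′ to 3′ on the strand of its gene, ending where the annotated exons begin. Capitals mark matches to the core of the interferon-stimulated response element (ISRE), spelled GAAA, any 2 bases, then GAAA. That element is bound by transcription factors that type I interferon signalling activates. The Ifitm1 stretch is chr7:140967826-140968027 on the plus strand and lies inside an intron of the longest GENCODE model, just before its shorter models begin. The Ifitm2 stretch is chr7:140955988-140956211 and the Ifitm3 stretch chr7:141010771-141010994, both on the minus strand.
Ifitm1 upstream: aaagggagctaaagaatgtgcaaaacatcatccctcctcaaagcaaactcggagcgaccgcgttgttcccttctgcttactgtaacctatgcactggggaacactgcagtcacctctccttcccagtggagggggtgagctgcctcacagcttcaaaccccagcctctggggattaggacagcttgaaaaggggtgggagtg
Ifitm2 upstream: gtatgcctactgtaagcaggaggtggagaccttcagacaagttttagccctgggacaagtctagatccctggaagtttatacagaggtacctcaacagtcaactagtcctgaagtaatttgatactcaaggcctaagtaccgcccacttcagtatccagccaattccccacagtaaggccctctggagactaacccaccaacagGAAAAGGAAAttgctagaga
Ifitm3 upstream: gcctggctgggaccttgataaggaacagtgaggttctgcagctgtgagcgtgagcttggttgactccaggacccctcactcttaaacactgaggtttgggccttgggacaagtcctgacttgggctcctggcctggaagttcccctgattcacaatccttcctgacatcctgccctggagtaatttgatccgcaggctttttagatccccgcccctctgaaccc
Both strands of the whole windows, which run from 250 bases before to 50 bases after each RefSeq start, were searched. The Ifitm1 window had 0 matches to the ISRE core, and the Ifitm2 window had 1, at chr7:140955998-140956007. The Ifitm3 window had 2, both inside its first exon. The one at chr7:141010716-141010725 overlaps a match to TTCNNNGAA, the core of the GAS element of the interferon gamma response, and all 3 matches lie in 1 run of 27 bases at chr7:141010716-141010742.
Ifitm3 first exon: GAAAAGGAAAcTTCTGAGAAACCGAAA
In this last line capitals mark both motifs. The ISRE core was found in 3.44% of the 32851 windows of this length and in 17 of the 30 interferon-induced effector genes that matched the table (56.7%). A gene counted if any of its windows matched, so shares of windows and shares of genes are unlike measures. TTCNNNGAA was found in 8.3% of the windows, in 9 of those 30 genes and once in the Ifitm6 window, while the 3 Ifitm10 windows had neither motif. A match describes letters only, and a window without one says nothing of binding elsewhere.

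Ifitm1 was higher in every GFP high library than in any GFP low library, while Ifitm2 and Ifitm3, the neighbours on either side of it, had groups that overlapped. Ifitm1 (ENSMUSG00000025491, GRCm38 chromosome 7, 140967221 to 140969825, plus strand) had 197, 280, 350, 992 and 946 counts in libraries 1 to 5 of GFP high. In libraries 1 to 5 of GFP low it had 32, 20, 34, 152 and 162. Scaled to CPM, these were 14.4, 24.4, 24.6, 77.2 and 81.9 for GFP high, and 2.29, 1.41, 3.29, 11.9 and 10.97 for GFP low. The groups did not overlap, although GFP high library 1 lay close above GFP low library 4. Across all tested genes, 20.5% did not overlap between the groups and 7.92% did so with GFP high above. GFP high had a mean of 44.5 ± 32.3 CPM against 5.98 ± 5.05 CPM for GFP low (SD, n = 5 each). The log2 fold change was 2.89 ± 0.64 (SE), or 7.39-fold, and with the replicate number as a block it was 2.98 ± 0.18. A log2 fold change of at least that of Ifitm1 was found for 23 tested genes (0.180%), and nothing is read from that share because the contrast chose the gene. In bulk libraries, fewer cells that express a gene and less of its RNA per cell cannot be told apart.

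Ifitm2 (ENSMUSG00000060591, chromosome 7, 140954837 to 140955987, minus strand) starts at -11.2 kb from the start of Ifitm1 and is read in the opposite direction. It was at 121, 100.4, 98.6, 116 and 143 CPM in GFP high libraries 1 to 5 and at 111, 92.0, 106, 118 and 120.4 CPM in GFP low libraries 1 to 5. The groups overlapped over most of their range, and the highest library was only 1.56-fold above the lowest. GFP high had a mean of 116 ± 18.1 CPM against 109 ± 11.3 CPM for GFP low, a log2 fold change of 0.08 ± 0.11 (SE). Ifitm3 (ENSMUSG00000025492, chromosome 7, 141009586 to 141010770, minus strand), the family's best studied antiviral member, starts 43.5 kb past the start of Ifitm1. It was at 60.5, 47.2, 49.8, 55.1 and 59.1 CPM for GFP high and at 66.0, 44.0, 47.5, 54.2 and 52.0 CPM for GFP low. Its groups overlapped too, with a ratio of 1.5 between the highest and the lowest library, against 57.9 for Ifitm1. The group means were 54.4 ± 5.76 CPM for GFP high and 52.7 ± 8.39 CPM for GFP low, a log2 fold change of 0.04 ± 0.12 (SE).

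**Figure D1:**
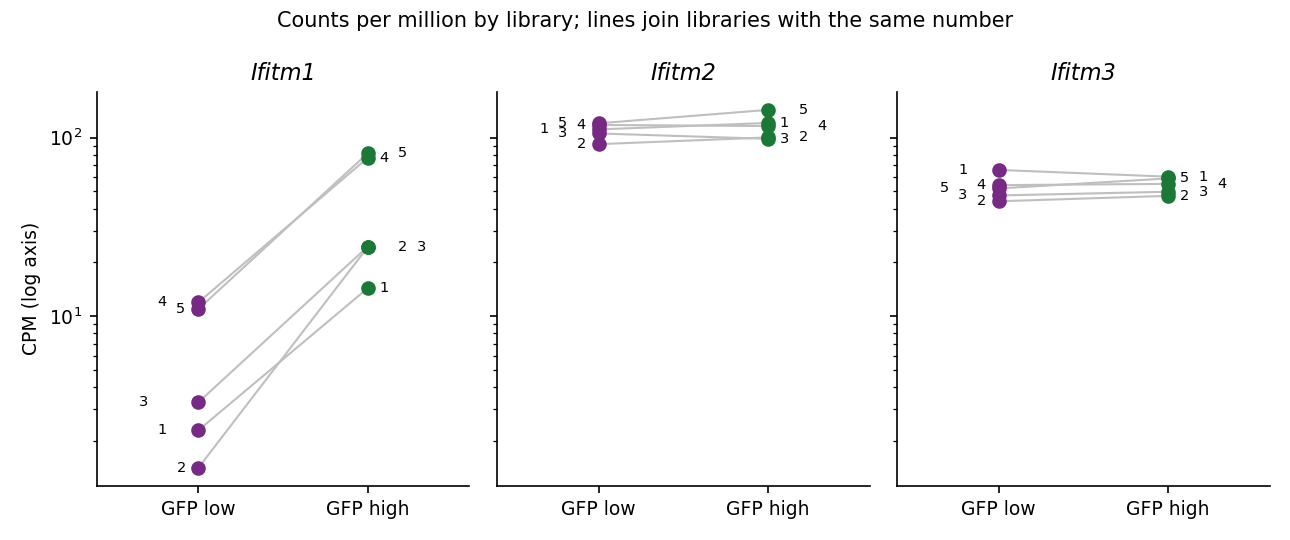
CPM of Ifitm1, Ifitm2 and Ifitm3 in each library on a log axis, with GFP low and GFP high libraries of the same number joined by a line. Ifitm1 spans 1.41 to 81.9 CPM with every line going up, while Ifitm2 stays between 92.0 and 143 CPM and Ifitm3 between 44.0 and 66.0 CPM.

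Ifitm6, a member known from myeloid cells, was near the limit of detection. Libraries 1 to 5 held 4, 2, 6, 0 and 4 counts of it for GFP high, and 0, 4, 0, 2 and 0 for GFP low. Ifitm10, the most distant member of the family on this chromosome, had 8 counts in GFP low library 4 and 0 in every other library. A count of 0 allows up to 3 counts, and neither gene could be tested. Of the family members outside the 5, the bone gene Ifitm5 had 25 counts over all libraries, 12 for GFP high and 13 for GFP low, and Ifitm7 on chromosome 16 had 0. Nearly all counts of the family were thus of Ifitm1, Ifitm2 and Ifitm3.

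How separable the members are in short reads differs between them. No exon base of Ifitm1 or Ifitm3 is shared with another annotated gene, while 40.92% of the exon length of Ifitm2 is also annotated to Gm45717. That gene is a readthrough model on the same strand and was listed at 0 in every library. Of the 50-base stretches of the transcripts, 5.02% of those of Ifitm1, 10.02% of those of Ifitm3 and 48.51% of those of Ifitm2 occur identically in another gene, namely pseudogenes, Gm45717 or another IFITM gene. The sources used here do not give the treatment of reads that match several places, so the level of Ifitm2 is the least certain of the 3.

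Levels of the members relative to each other were compared per kilobase of exon. Ifitm2 was the highest member in every library, with a mean of 177 ± 27.7 CPM per kb for GFP high and 167 ± 17.3 CPM per kb for GFP low. Ifitm3 followed with 80.2 ± 8.49 and 77.8 ± 12.4 CPM per kb, and Ifitm1 was the lowest of the 3 with 40.7 ± 29.6 and 5.47 ± 4.62 CPM per kb. In GFP high the spread of Ifitm1 over libraries comes near the level of Ifitm3, so those neighbours in the order are not apart beyond their spread there. Of the summed CPM per kb of the 3 genes, Ifitm1 made up 4.57%, 9.09%, 9.11%, 21.4% and 19.7% in GFP high libraries 1 to 5. In GFP low libraries 1 to 5 its share was 0.779%, 0.625%, 1.28%, 4.03% and 3.70%. The shares of the groups did not overlap, with a mean of 12.8% ± 7.36 against 2.08% ± 1.65. The ratio of Ifitm2 to Ifitm3 was 2.20 ± 0.18 for GFP high and 2.17 ± 0.25 for GFP low libraries.

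**Figure D2:**
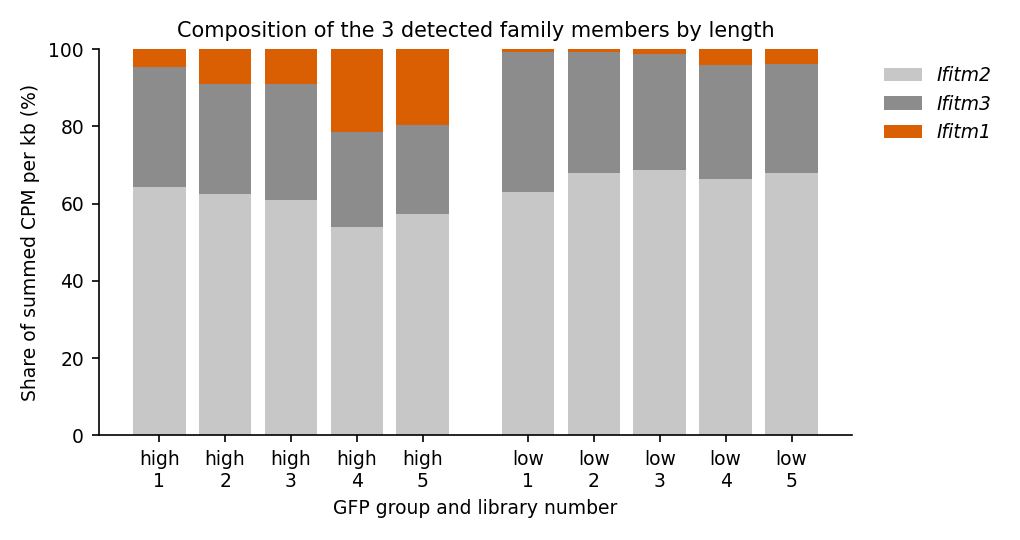
Share of Ifitm1, Ifitm2 and Ifitm3 in their summed CPM per kb of exon, in percent, with 1 bar per library. The Ifitm1 segment is 4.57% to 21.4% for GFP high and 0.625% to 4.03% for GFP low.

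Ifitm1 also varied between libraries of the same group, and in the same way in both groups. In GFP high it was 14.4 to 24.6 CPM in libraries 1 to 3 and 77.2 to 81.9 CPM in libraries 4 and 5, a ratio of means of 3.77. In GFP low it was 1.41 to 3.29 CPM in libraries 1 to 3 and 10.97 to 11.9 CPM in libraries 4 and 5, a ratio of 4.91. The same ratios were 1.22 and 1.16 for Ifitm2 and 1.09 and 1.01 for Ifitm3. Between GFP high and GFP low libraries of the same number, Ifitm1 was higher in GFP high in 5 of 5 pairs, by 6.26, 17.3, 7.46, 6.46 and 7.47-fold. Its log2 fold change was 3.22 in the libraries numbered 1 to 3 alone and 2.78 in those numbered 4 and 5 alone, a split made after seeing the data.

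Marker sums did not all follow the same pattern. The stem and early progenitor sum and the monocyte and macrophage sum were higher in libraries 4 and 5 of both groups. Both overlapped between GFP high and GFP low. The B lineage, NK cell, and stroma and endothelium sums did not overlap between the groups. The remaining sums did overlap, and none of them was higher without overlap in libraries 4 and 5 of both groups. The 10 stem and early progenitor markers summed to 122 to 182 CPM in GFP high libraries 1 to 3 and 324 to 346 CPM in libraries 4 and 5, and to 58.4 to 98.3 and 159 to 180 CPM in the same libraries of GFP low. Most of that sum was Kit, the stem cell factor receptor also present on early B-cell progenitors, at 178 ± 94.2 CPM for GFP high and 78.8 ± 43.5 CPM for GFP low. The edgeR adjusted p of Kit was 0.0587, and 3.43e-07 with the replicate block. Of the 5 tested genes of that list, 1 was called higher, Flt3 (20%, against 12.0% of all tested genes). It was at 2.31 to 7.27 CPM for GFP high and 0 to 2.30 CPM for GFP low (edgeR adjusted p = 0.0244). Flt3 passed the filter on low counts through GFP high, so its call is not independent of the contrast. The 9 monocyte and macrophage markers summed to 80.3 to 122 CPM for GFP high and 45.5 to 86.8 CPM for GFP low, with libraries 4 and 5 above libraries 1 to 3 in both groups. Their most abundant gene was Lyz2, at 67.9 ± 16.6 and 52.6 ± 17.6 CPM (edgeR adjusted p = 0.244, with the replicate block 0.00259). Of the same list, Csf1r was at 26.1 ± 4.24 against 5.92 ± 1.81 CPM (edgeR adjusted p = 3.53e-05). Cd68 was at 3.82 to 4.97 against 0.717 to 3.46 CPM (edgeR adjusted p = 0.0563, with the replicate block 0.0220). Neither gene overlapped between the groups, which held for 20.5% of all tested genes. Flt3, Csf1r, Cd68 and, further on, Prf1, Nkg7, Ncr1, Klrk1, Siglech, Cox6a2, Ccr9 and Runx2 are genes chosen after their values were seen here. The 8 NK cell markers summed to 187 to 329 CPM for GFP high and 63.5 to 166 CPM for GFP low, and the groups did not overlap. Nearly all of it was Klrb1c (274 ± 62.8 against 107 ± 43.4 CPM), while Klra8, Gzma and Eomes were at 0. Prf1 was at 1.69 ± 0.85 against 0.56 ± 0.41 CPM, with overlapping groups (edgeR adjusted p = 0.0939). Nkg7 had 60 counts for GFP high and 24 for GFP low, too few to test, and Ncr1 and Klrk1 had 4 counts each in all. T cell markers summed to at most 2.68 CPM, with Cd8a at 0, and neutrophil markers to at most 10.8 CPM. The 6 plasmacytoid dendritic cell markers summed to 353 to 668 CPM for GFP high and 376 to 618 CPM for GFP low, nearly all of it Ly6d, which B-cell progenitors share, and Klk1 was at 0. Siglech of that list was low but did not overlap between the groups, as for 20.5% of all tested genes. It was at 3.70 ± 1.84 against 0.154 ± 0.103 CPM (edgeR adjusted p = 0.00023). Siglech passed the filter on low counts through GFP high, so its call is not independent of the contrast. Cox6a2 of the list went the other way, at 1.31 ± 0.84 against 1.72 ± 0.67 CPM (edgeR adjusted p = 0.596), with overlapping groups. Ccr9 and Runx2 had too few counts to test, 35 and 36 for GFP high and 23 and 9 for GFP low. Erythroid markers summed to 16.6 to 46.8 against 7.84 to 22.4 CPM, and megakaryocyte and basophil markers to at most 9.55 and 9.18 CPM. Stroma and endothelium markers summed to 254 to 305 against 142 to 178 CPM, most of it Pecam1, which B-cell progenitors share. The part of other cells in the Ifitm1 level was not tested.

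Genes around Ifitm1 did not move as a block. Of 17 annotated genes within 100 kb of Ifitm1, 7 were tested, and 5 of the 17 are predicted genes or pseudogenes. Sirt3, a mitochondrial deacetylase gene at -84.9 kb from the start of Ifitm1, rose in GFP high from 36.1 ± 2.65 to 55.8 ± 4.04 CPM (log2 fold change 0.63 ± 0.09, edgeR with Benjamini-Hochberg adjusted p = 0.000351). Psmd13, a proteasome subunit gene at -85.3 kb from it, fell from 212 ± 20.1 to 149 ± 25.5 CPM (-0.50 ± 0.12, edgeR adjusted p = 0.00687). These genes overlap at their starts, and the sources used here do not say if counting used strand. Pgghg, the gene next to the family on the other side of Ifitm5 and coding for a collagen glucosidase, was at 35.1 ± 1.63 and 38.4 ± 6.26 CPM (-0.13 ± 0.12, edgeR adjusted p = 0.464). Cox8b, Nlrp6, BC024386 and B4galnt4 were listed at 0 in every library. The median log2 fold change of all tested genes was 0.03.

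**Figure D3:**
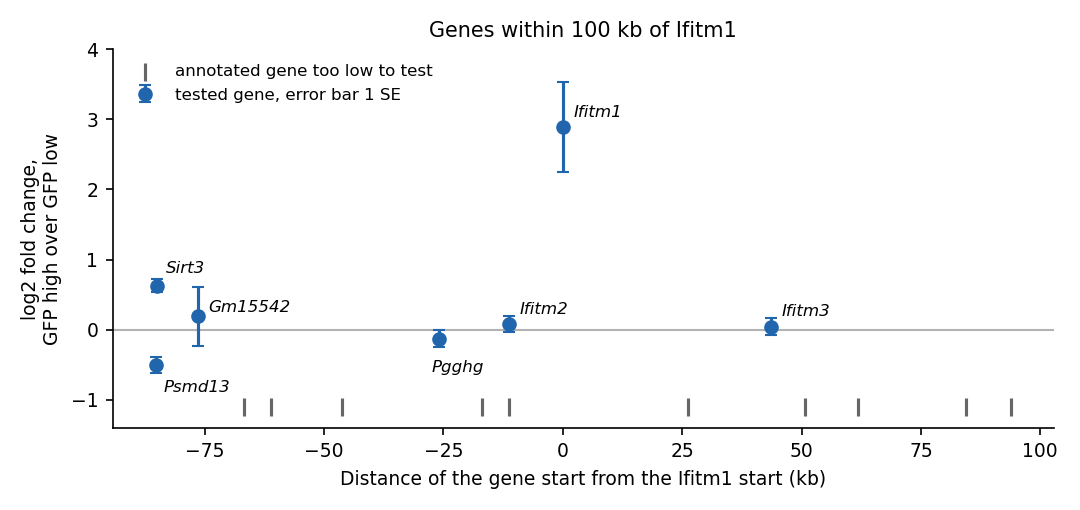
Log2 fold change, GFP high over GFP low, of the tested genes within 100 kb of Ifitm1 against the distance of their start from that of Ifitm1 in kb, with error bars of 1 SE and ticks for annotated genes too low to test. Ifitm1 is at 2.89 and every other tested gene lies between -0.50 and 0.63.

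The genes whose profile over the 10 libraries was nearest to that of Ifitm1 were Nrg2, Muc13, Gng4, Dtx4 and Scin. Likeness was the root mean square difference between log2 CPM profiles, each centred on its own mean, and was computed for 10669 genes. The difference from Ifitm1 was 0.46 for Nrg2, 0.51 for Muc13, 0.54 for Gng4, 0.55 for Dtx4 and 0.56 for Scin, while for the median gene it was 1.88. Muc13, a cell surface mucin gene, was at 95, 103, 116, 186 and 188 CPM in GFP high libraries 1 to 5 and at 14.1, 7.28, 14.7, 31.5 and 34.1 CPM in GFP low. Scin, which codes for the actin-severing protein scinderin, was at 61.8, 49.0, 81.7, 247 and 257 CPM for GFP high and at 15.4, 10.6, 20.8, 36.2 and 30.9 CPM for GFP low. Both show the split of Ifitm1, with every GFP high library above every GFP low library and libraries 4 and 5 above the others of their group. They were chosen by likeness to Ifitm1 over the same libraries, so this split largely follows from the choice, and nothing is read from it. Of all tested genes, 7.92% had groups that did not overlap with GFP high above. Gng4, a G protein gamma subunit gene, was at 80.7 ± 37.6 and 8.77 ± 6.20 CPM, and Dtx4, a gene of the Deltex ubiquitin ligases, at 25.7 ± 13.5 and 3.52 ± 2.32 CPM. Nrg2, a neuregulin gene, was low, at 4.19 ± 2.86 and 1.03 ± 1.09 CPM, and its groups overlapped. It did not pass (edgeR adjusted p = 0.0593) but did with the replicate block (edgeR adjusted p = 0.000839). Nrg2 was chosen by likeness to Ifitm1 and passed the filter on low counts largely through GFP high. Neither p-value is therefore independent of the contrast. In GFP low libraries 1 to 3 Nrg2 had 4, 2 and 4 counts, where the prior count of 2 shapes its profile.

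**Figure D4:**
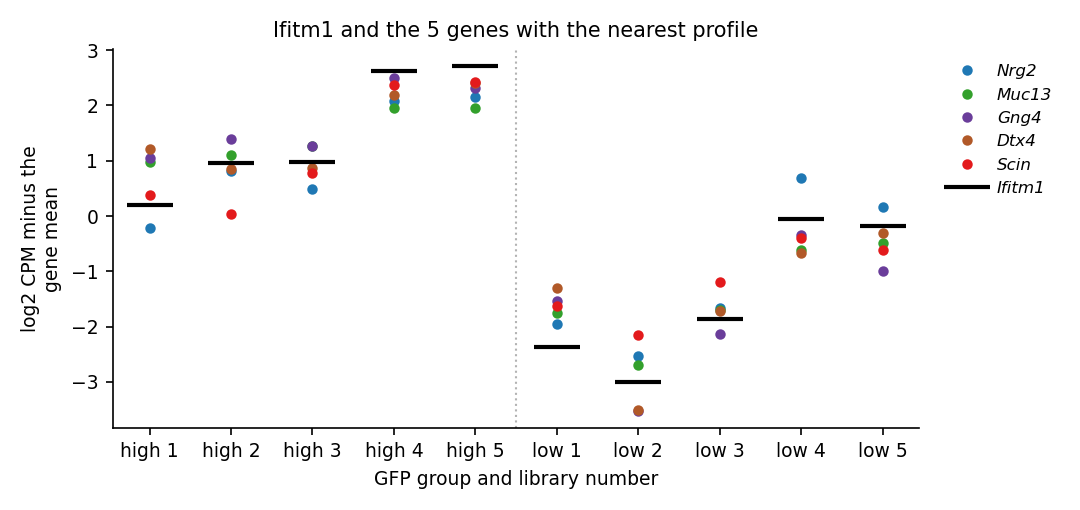
Log2 CPM of Ifitm1 (black bars) and of the 5 genes with the nearest profile (points) in each library, each minus its own mean over the 10 libraries. In both groups Ifitm1 is highest in libraries 4 and 5, where its CPM was 77.2 and 81.9 for GFP high and 11.9 and 10.97 for GFP low.

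Ifitm2 and Ifitm3 had profiles near to each other and far from that of Ifitm1. Their root mean square difference was 0.14, and Ifitm3 ranked 180 of 10669 genes by likeness to Ifitm2. The difference between Ifitm1 and Ifitm2 was 1.76 and that between Ifitm1 and Ifitm3 was 1.82, both close to the 1.88 of the median gene. The genes nearest to Ifitm2 were Gusb, Trappc9 and Polr2e, at 0.056, 0.065 and 0.072, and those nearest to Ifitm3 were Bloc1s1, Ampd2 and Pck2, at 0.080, 0.084 and 0.087.

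Since IFITM genes are classed as interferon-induced, the other genes of that pathway were counted along its course. Of 20 interferon genes, 18 were at 0 in every library, and the other two, Ifna13 and Ifnk, had 4 and 5 counts in all. Among receptors and signal transducers, 8 of 19 tested genes rose in GFP high and 0 fell (42.1% higher, against 12.0% of all tested genes higher and 15.4% lower). Under the replicate block 14 were higher and 0 lower, against 20.7% and 21.0% of all genes. The median log2 fold change of the list was 0.26. Jak1, the kinase shared by the interferon receptors, rose from 568 ± 48.8 to 745 ± 42.4 CPM (0.39 ± 0.07, edgeR adjusted p = 0.00215). Tyk2, the partner kinase of the type I receptor, rose from 44.7 ± 8.40 to 73.0 ± 13.2 CPM (0.71 ± 0.15, edgeR adjusted p = 0.00476). Stat2, a signal transducer of type I interferons, rose from 49.2 ± 9.47 to 75.8 ± 10.1 CPM (0.62 ± 0.14, edgeR adjusted p = 0.00472), and Ifnlr1, the receptor of type III interferons, from 18.9 ± 5.95 to 36.5 ± 5.68 CPM (0.95 ± 0.21, edgeR adjusted p = 0.00472). The type I receptor gene Ifnar1, chosen after its values were seen, was at 144 ± 10.5 against 141 ± 9.39 CPM, with overlapping groups.

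Of 41 interferon-induced effector genes, all tested, 10 rose in GFP high, 0 fell and 31 did not pass, which is 24.4% higher, against 12.0% of all tested genes higher and 15.4% lower. Under the replicate block the counts were 18 higher and 3 lower, against 20.7% and 21.0% of all tested genes. The median log2 fold change was 0.21, and 33 of the 41 values were positive. The count of higher genes was 6 without GFP high library 2 or GFP high library 4, and 5 without GFP high library 3 or GFP low library 3. Ifit3, of a family of proteins that bind viral RNA, rose from 4.40 ± 1.35 to 10.5 ± 2.20 CPM (1.25 ± 0.26, edgeR adjusted p = 0.00325). Gbp2, a guanylate-binding protein gene, rose from 69.6 ± 19.1 to 123 ± 35.4 CPM (0.82 ± 0.21, edgeR adjusted p = 0.0131), and Oasl1 from 11.5 ± 2.37 to 20.1 ± 5.16 CPM (0.80 ± 0.20, edgeR adjusted p = 0.0114). Ifit3b, a near copy of Ifit3 whose reads may be split with it, rose from 0.614 ± 0.421 to 2.19 ± 0.26 CPM (1.79 ± 0.54, edgeR adjusted p = 0.0278). It was at 1.92 to 2.48 CPM in GFP high and 0 to 1.15 CPM in GFP low libraries. It passed the filter on low counts through GFP high, so its call is not independent of the contrast. The Ifit3b call was lost without GFP high library 3 (adjusted p = 0.0566) and without GFP low library 2 (adjusted p = 0.0543) or 4 (adjusted p = 0.0626). Isg15, a ubiquitin-like effector chosen after its values were seen, overlapped between the groups, at 8.42 ± 2.63 CPM for GFP high and 9.23 ± 1.17 CPM for GFP low. The summed level of the 41 genes also overlapped, at 4425 to 5340 CPM for GFP high and 4527 to 5176 CPM for GFP low. Much of that sum was Ly6e, a gene chosen after its values were seen, at 2057 ± 229 against 2317 ± 149 CPM. Its log2 fold change was -0.17 ± 0.08 (edgeR adjusted p = 0.125, with the replicate block 0.0101). The sum therefore says little of the other genes of the list. The sum of the NK cell markers, nearly all Klrb1c, was higher in GFP high, at 187 to 329 against 63.5 to 166 CPM, and its part in these calls was not tested.

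Interferon genes of both kinds differed between the numbered libraries, but not in 1 direction. The effector sum was higher in libraries 4 and 5 than in libraries 1 to 3, at 5296 to 5340 against 4425 to 4675 CPM for GFP high and 4837 to 5176 against 4527 to 4786 CPM for GFP low. Much of the effector sum was Ly6e, and its part in this difference was not tested. The receptor and transducer sum was lower in libraries 4 and 5, at 2598 to 2654 against 2885 to 2997 CPM for GFP high and 2167 to 2181 against 2356 to 2474 CPM for GFP low.

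**Figure D5:**
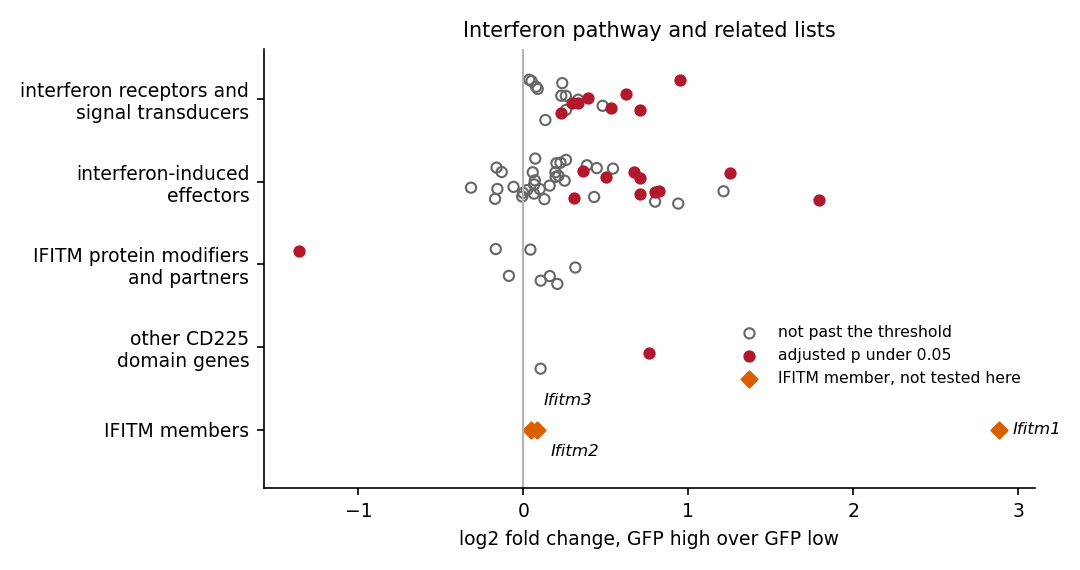
Log2 fold change, GFP high over GFP low, of each tested gene of the interferon and IFITM partner lists, with filled points past an edgeR adjusted p of 0.05 and diamonds for the IFITM members. Ifitm1 is at 2.89, while the 19 receptor and transducer genes have a median of 0.26 and the 41 effector genes a median of 0.21.

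Among the genes whose products meet IFITM proteins on B cells, the tetraspanin gene Cd81 fell in GFP high from 382 ± 19.6 to 324 ± 19.5 CPM (-0.24 ± 0.07, edgeR adjusted p = 0.0252). That call was lost without GFP high library 2 (adjusted p = 0.0790) or 3 (adjusted p = 0.0562) and without GFP low library 4 (adjusted p = 0.0699) or 5 (adjusted p = 0.0606). It was also lost with no filter on low counts (edgeR adjusted p = 0.130), without both libraries numbered 3 (edgeR adjusted p = 0.0837) and in the libraries numbered 1 to 3 alone (edgeR adjusted p = 0.114). The complement receptor gene Cr2 was at 5.48 ± 1.43 and 6.01 ± 2.67 CPM.

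Of 8 genes that modify IFITM proteins or bind them, 1 fell and 7 did not pass, where 15.4% of all tested genes fell. Under the replicate block the counts were 2 higher and 2 lower, where 20.7% and 21.0% of all tested genes were. Both are near the share among all tested genes. Nedd4, a ubiquitin ligase known to act on IFITM3, fell in GFP high from 381 ± 30.1 to 148 ± 26.3 CPM (-1.36 ± 0.12, edgeR adjusted p = 1.30e-05), with every GFP high library below every GFP low library. Zdhhc20, which codes for a palmitoyltransferase known to modify IFITM3, was at 276 ± 44.9 and 222 ± 58.3 CPM (0.31 ± 0.16, edgeR adjusted p = 0.163). Its call appeared under the replicate block (0.33, edgeR adjusted p = 0.000853) and without GFP low library 1 (0.49, edgeR adjusted p = 0.00831). The depalmitoylase gene Abhd16a (edgeR adjusted p = 0.0950) passed with the block alone among the alternatives run (0.21, edgeR adjusted p = 0.0498), as did the tyrosine kinase gene Fyn (edgeR adjusted p = 0.0999, with the block -0.17 and edgeR adjusted p = 0.0294). Of 7 other genes with the CD225 domain that defines the family, 2 were tested. Syndig1l rose from 6.10 ± 0.76 to 10.3 ± 2.37 CPM (0.76 ± 0.20, edgeR adjusted p = 0.0137), a call lost without both libraries numbered 3 (0.67, edgeR adjusted p = 0.0640) and in libraries 1 to 3 or 4 and 5 alone (edgeR adjusted p = 0.0646 and 0.124). Tmem91 was at 2.89 ± 0.71 and 2.69 ± 0.81 CPM (0.10 ± 0.31, edgeR adjusted p = 0.832).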

How the data were processed

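Bulk polyadenylated RNA of 10 libraries was amplified with a SMART-Seq kit for small amounts of RNA, per the labels' protocols. The authors deposited whole-number read counts per Ensembl gene, not normalized. The submitters' processing notes name STAR, featureCounts, DESeq2 and mm10, with no role or version. Symbols, positions and exon lengths came from GENCODE M21 on GRCm38, the build mm10, which held 99.833% of the identifiers. The 93 others held 4219 of 129994434 counts.

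Counts were fitted with edgeR 4.0.16 in R 4.3.3 (filterByExpr, TMM scaling, quasi-likelihood test, Benjamini-Hochberg adjustment over 12772 genes, threshold 0.05), GFP high over GFP low, without covariates. CPM used TMM-scaled library sizes, and log2 CPM profiles a prior count of 2. The common biological coefficient of variation was 0.249. The test was checked on simulated counts. The labels do not say what the replicate number in a title marks, so the main fit ignores it and a fit that pairs libraries by it is an alternative. The deviations of same-numbered libraries from their group means correlated at 0.25 to 0.35 in all 5 pairs. The highest correlation with a library of another number was lower in each pair, but close to it for number 4 (0.349 against 0.292) and number 5 (0.353 against 0.321). For genes reported with a p-value, the fit with that number as a block is given where it changes the call. No pair of libraries in a group agreed within sampling noise, with a lowest chi-square per gene of 7.16.

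The 5 members, the lists of genes and the rule for named genes were chosen with earlier results of these data known. The rule named 55 genes: the family, the 5 genes nearest to Ifitm1 and the 3 nearest to Ifitm2 and Ifitm3, annotated genes within 100 kb, the 4 members of each pathway list with the lowest p, the most abundant member of each marker list, Pax5 and Mki67. Genes said to be chosen after their values were seen are outside it. Promoter windows came from RefSeq, GRCm38.p6. Alternatives were DESeq2 1.42.0, RLE scaling, no filter, each library left out, both libraries numbered 3 left out, and subsets by library number. Some genes of the lists are counted but not reported by name here.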

Additional observations from a re-analysis of the deposited data

Results flagged for a closer look

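In 93 groups of 5 libraries, 1 library was set apart from the other 4 in 5 cases, and chance alone sets about 1 in 20 groups apart. All 5 concerned a library numbered 1. Psmd13, near Ifitm1 on the chromosome, was at 177 CPM in GFP low library 1 and at 215 to 227 CPM in the other GFP low libraries. Zdhhc20, the palmitoyltransferase gene, was at 355 CPM in GFP high library 1 against 246 to 266 CPM in the others, and at 325 CPM in GFP low library 1 against 188 to 210 CPM. Ly6d, a surface marker of lymphoid progenitors, was at 351 CPM in GFP high library 1 against 581 to 661 CPM, and at 375 CPM in GFP low library 1 against 558 to 615 CPM. No IFITM member had such a library.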

How the results depend on the processing

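Ifitm1 was higher in GFP high under every alternative run, with log2 fold changes of 2.54 (without GFP high replicate 5) to 3.28 (without GFP low replicate 4) when 1 library was left out. Under the same omissions Ifitm2 ranged from 0.01 to 0.15 and Ifitm3 from -0.01 to 0.13. With the replicate block, which pairs libraries by number, 2645 genes were higher, 14 receptor and transducer genes were higher, 18 effector genes were higher and 3 effector genes were lower; it reversed no named gene. Without both libraries numbered 3, 926 genes and 4 effector genes were higher, and Tmem91 turned to -0.14. In libraries 1 to 3 alone 1 effector gene was lower and Cr2 turned to 0.088, and in libraries 4 and 5 alone Tmem91 turned to -0.36. With single libraries left out, higher effector genes numbered 5 to 10 and lower ones 0 to 1, Cr2 ranged from -0.30 to 0.12 and Tmem91 from -0.020 to 0.26. Fewer libraries were fitted in these subsets, and the cause of the other shifts was not tested. Counts limit Ifitm6 and Ifitm10, which had 22 and 8 in all.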
